A study of Mus musculus with 7 samples.

Results

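The genes described here are known from neutrophils and other myeloid cells and were measured in sorted osteoblasts, the cells that form bone. The 10 genes were Cxcr2, Csf3r, Cxcr4, Itgam, Ptprc, Ccl9, S100a8, S100a9, Lyz2 and Elane, taken by symbol from the 23725 gene IDs counted. They were chosen by the high counts of Cxcr2 and Itgam, in a sort set to leave leukocytes out, so the levels of these genes are given as a description with no test. Libraries came from 4 tumor-bearing and 3 tumor-free mice, 1 library of 2000 sorted cells per mouse. All mice were C57BL/6 males with the genotype KrasLSL-G12D/WT;p53Flox/Flox and an osteocalcin (Ocn) GFP reporter, which marks cells in which the osteocalcin promoter is active. Lung tumors were started by adenovirus expressing Cre (AdCre) given into the trachea, and tumor-bearing mice were taken 14 weeks later. Tumor-bearing replicate 4 and tumor-free replicate 3 came from mice aged 23 weeks, and the other 5 libraries from mice aged 31 weeks. The sources used here do not say whether tumor-free mice received a virus. The sorted cells were GFP-positive and negative for CD45, CD31 and Ter119, from collagenase-digested bone pooled with lineage-depleted marrow. Of 15 osteoblast marker genes 14 had counts, together 0.132% to 0.184% of a tumor-bearing library and 0.176% to 0.285% of a tumor-free one, with Col1a1, a chain gene of type I collagen, highest. Of the 15, 8 had a mean of at least 5 counts per library. Others were low, with 21 counts for Alpl, 4 for Sp7 and 4 for Bglap3 in all 7 libraries. Osteocalcin itself was near the floor: its near-identical copies Bglap and Bglap2, between which the counting may split reads, had 8 and 5 counts in all 7 libraries.

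Neutrophils are made in the marrow from granulocyte progenitors under the drive of granulocyte colony-stimulating factor, which acts through Csf3r. CXCR4 holds them in the marrow near stromal cells that secrete CXCL12, and CXCR2, the receptor of chemokines such as CXCL1 and CXCL2, draws them out into the blood and into inflamed tissue. Granule proteins such as elastase (Elane), made in the promyelocyte, and lysozyme (Lyz2) are stored for release, while S100a8 and S100a9 fill the cytosol of the maturing cell. The RNA of granule and S100 proteins is usually far more abundant in this lineage than that of the receptors. Counts came from transcript 3′ ends, and in bulk RNA of sorted cells fewer cells of a type and less RNA per cell cannot be told apart.

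The 10 genes fell into 2 sets by their counts. Cxcr2, Csf3r, Itgam and Ccl9 had counts in each of the 7 libraries and passed the low count filter. Cxcr4 had few counts, Ptprc and S100a9 had 1 or 2 counts in 2 libraries each, and S100a8, Lyz2 and Elane had 0 counts throughout.

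Of the receptors, Cxcr2 (Entrez ID 12765; chromosome 1, 74153994 to 74161246, GRCm38.p6) had 143, 155, 211 and 229 counts in tumor-bearing replicates 1 to 4, and 158, 210 and 198 counts in tumor-free replicates 1 to 3. It ranked 14th of all gene IDs by summed counts. The groups overlapped, and the lowest counts of each group came from its shallowest library. Csf3r (12986; chromosome 4, 126023441 to 126044975) had 90, 69, 127 and 106 counts in tumor-bearing mice and 62, 103 and 98 counts in tumor-free mice. Its groups overlapped too. Cxcr4 (12767; chromosome 1, 128588199 to 128592299) had 0, 1, 5 and 6 counts in tumor-bearing mice and 2, 1 and 2 counts in tumor-free mice, so the tumor-bearing libraries lay on both sides of the tumor-free ones.

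Itgam (16409; chromosome 7, 128062640 to 128118491) encodes CD11b, the alpha chain of the integrin Mac-1 of neutrophils and macrophages. It had 19, 27, 45 and 39 counts in tumor-bearing mice and 31, 22 and 35 counts in tumor-free mice, with overlapping groups. CD11b reaches the cell surface only in a pair with CD18, the beta chain encoded by Itgb2, and Itgb2 had 1 count in all 7 libraries together. In GENCODE vM21, exons of the gene model Gm49368 overlap those of Itgam on the same strand, so the counting could have split reads between them. Ptprc (19264; chromosome 1, 138062859 to 138175756), which encodes CD45, the protein of the negative gate, had 1, 0, 0 and 2 counts in tumor-bearing mice and 0 in each tumor-free mouse.

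Ccl9 (20308; chromosome 11, 83572917 to 83578636), a mouse chemokine that acts on CCR1 and attracts myeloid cells, was the only chemokine of the 10. It had 7, 13, 27 and 21 counts in tumor-bearing mice and 16, 19 and 12 counts in tumor-free mice, and the tumor-bearing range enclosed the tumor-free one. Its receptor gene Ccr1 had 0 to 2 counts per library.

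The products that mark neutrophils by abundance were at the floor. S100a9 (20202; chromosome 3, 90692630 to 90695721), a chain of the calcium-binding dimer calprotectin, had 0 counts in each tumor-bearing library and 1, 1 and 0 counts in tumor-free libraries. Its partner S100a8 (20201; chromosome 3, 90669071 to 90670034), the lysozyme gene Lyz2 (17105; chromosome 10, 117277541 to 117282272) and the neutrophil elastase gene Elane (50701; chromosome 10, 79886312 to 79888216) had 0 counts in all 7. A count of 0 allows up to 3 counts, which over the 486964 counts of the 4 tumor-bearing libraries is 6.16 CPM (counts scaled to a common library total) and over the 343709 counts of the 3 tumor-free libraries 8.73 CPM. These limits cover counting error only.

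**Figure D1:**
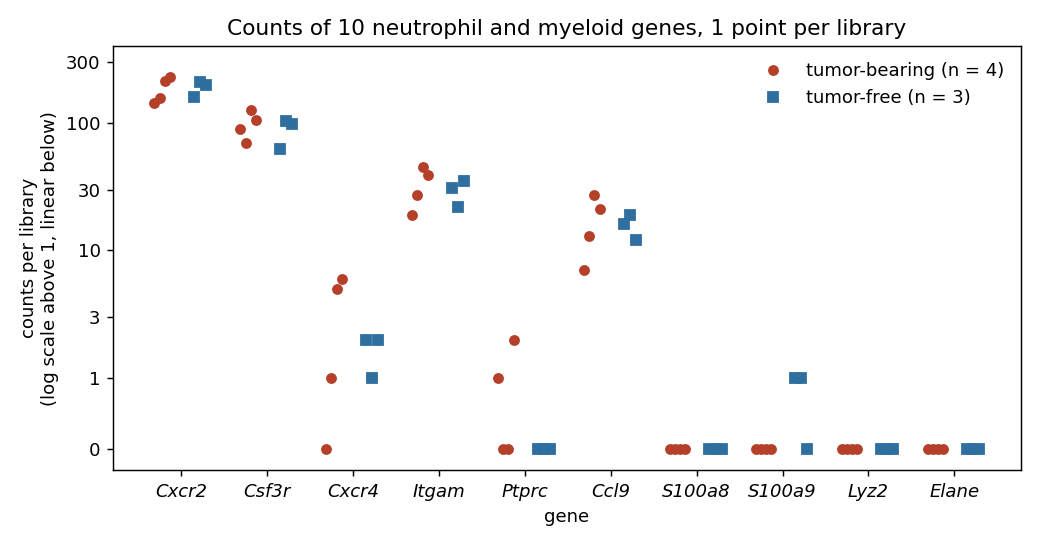
Counts of the 10 genes in each library (y axis, counts, on a log scale above 1 and linear below), with tumor-bearing libraries as circles and tumor-free libraries as squares. Cxcr2, Csf3r, Itgam and Ccl9 have counts in all 7 libraries and overlap between groups, while S100a8, Lyz2 and Elane lie at 0.

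The promoter sequences of 3 genes with many counts and of 2 genes at 0 are shown to set the regulatory sequence beside this division, since the transcription factor PU.1 drives much of the myeloid programme. Each is the 300-base window that the RefSeq promoter table on GRCm38.p6 gives for the gene, and capitals mark the PU.1 core GAGGAA on either strand, read as TTCCTC on the other. The windows are chr1:74153744-74154043 (plus strand) for Cxcr2, chr4:126024409-126024708 (plus) for Csf3r, chr7:128062390-128062689 (plus) for Itgam, chr3:90668821-90669120 (plus) for S100a8 and chr10:79886062-79886361 (plus) for Elane. The Csf3r window lies inside the gene as bounded above, whose outermost start is farther upstream, and each of the other 4 windows spans the start of its gene.
Cxcr2: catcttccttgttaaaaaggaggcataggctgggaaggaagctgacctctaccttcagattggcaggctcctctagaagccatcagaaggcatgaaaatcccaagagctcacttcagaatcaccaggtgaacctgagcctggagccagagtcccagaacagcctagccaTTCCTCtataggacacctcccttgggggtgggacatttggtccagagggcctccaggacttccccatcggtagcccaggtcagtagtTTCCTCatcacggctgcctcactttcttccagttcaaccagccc
Csf3r: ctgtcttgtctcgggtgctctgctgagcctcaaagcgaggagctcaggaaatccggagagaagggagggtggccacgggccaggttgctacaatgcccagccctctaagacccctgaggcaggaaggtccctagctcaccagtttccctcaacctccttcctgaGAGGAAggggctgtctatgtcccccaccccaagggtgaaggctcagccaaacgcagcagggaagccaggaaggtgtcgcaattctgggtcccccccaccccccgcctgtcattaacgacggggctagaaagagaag
Itgam: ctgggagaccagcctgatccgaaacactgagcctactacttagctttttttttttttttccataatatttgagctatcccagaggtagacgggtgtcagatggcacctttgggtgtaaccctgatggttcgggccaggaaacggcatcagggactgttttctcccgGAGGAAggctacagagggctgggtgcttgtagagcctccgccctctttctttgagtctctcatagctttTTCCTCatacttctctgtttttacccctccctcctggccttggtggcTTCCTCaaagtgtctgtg
S100a8: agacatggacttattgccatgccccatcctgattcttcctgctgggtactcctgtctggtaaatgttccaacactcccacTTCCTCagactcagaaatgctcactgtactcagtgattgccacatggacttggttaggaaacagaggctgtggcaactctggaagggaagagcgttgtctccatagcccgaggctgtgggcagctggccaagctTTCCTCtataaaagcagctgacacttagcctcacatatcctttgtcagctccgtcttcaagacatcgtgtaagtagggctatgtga
Elane: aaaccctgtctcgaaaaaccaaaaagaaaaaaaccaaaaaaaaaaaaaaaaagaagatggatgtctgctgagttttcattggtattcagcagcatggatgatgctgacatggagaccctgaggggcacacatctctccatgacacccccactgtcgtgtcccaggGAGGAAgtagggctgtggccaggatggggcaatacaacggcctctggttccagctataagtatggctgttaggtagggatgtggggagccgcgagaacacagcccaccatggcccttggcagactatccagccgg

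The core stood in the promoters of both sets: 2 matches for Cxcr2, 1 for Csf3r and 3 for Itgam among the genes with many counts, and 2 for S100a8 and 1 for Elane among those at 0. Ptprc held 1 match as well, so 6 of the 10 promoters had the core, and 28.3% of 32851 promoters of the same length in the table had it. For Ptprc the promoter table holds 2 windows, and only the first was searched. The promoters of Cxcr4, Ccl9, S100a9 and Lyz2 held none of these letters in the window. The C/EBP motif TTNNGCAA, for the factors of granulocyte differentiation, occurred only in the S100a9 promoter among the 10 (10.8% of all promoters). The RUNX core TGTGGT occurred in those of S100a9 and Lyz2 (16.8% of all promoters). Neither overlapped a GAGGAA match, because the promoters that held them had none. Neither Spi1, which encodes PU.1, nor Cebpe, a factor of late granulocyte maturation, had a count in any library.

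Tumor-bearing and tumor-free mice overlapped in all 4 genes that could be tested, and no difference passed the test. The genes were fitted together with the rest of the 2495 genes that passed the low count filter, by edgeR's quasi-likelihood method, age being a term of the model. Over the whole table the test called 0 genes at an adjusted p under 0.05 (0% of those tested; 2.69% had an unadjusted p under 0.05, and in 3.53% the CPM of the groups did not overlap). DESeq2 and limma voom also called 0 genes, with 49 and 95 at an unadjusted p under 0.05. Of the 10 genes 4 were tested, and of these 0 were called and 0 had an unadjusted p under 0.05. In 0 of the 10 were the groups free of overlap, but S100a8, Lyz2 and Elane, at 0 throughout, could not differ.

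In CPM on TMM-scaled library sizes, Cxcr2 had 1961, 1629, 1185 and 1562 CPM in tumor-bearing replicates 1 to 4 and 1537, 1783 and 1596 CPM in tumor-free replicates 1 to 3. The highest and the lowest value were both from tumor-bearing mice. The means were 1585 ± 318.2 CPM with a tumor (SD, n = 4) and 1638 ± 128.3 CPM without (SD, n = 3), a log2 fold change of -0.06 (SE 0.20, 95% interval -0.52 to 0.40; edgeR adjusted p = 0.990). Without tumor-bearing replicate 3, its lowest value, the log2 fold change was 0.01.

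Csf3r had 1234, 725, 714 and 723 CPM in tumor-bearing mice and 603, 874 and 790 CPM in tumor-free mice. The value of 1234 CPM, from tumor-bearing replicate 1, stood alone above the rest. The means were 849 ± 257 CPM with a tumor (SD, n = 4) and 756 ± 139 CPM without (SD, n = 3), a log2 fold change of 0.14 (SE 0.27, 95% interval -0.49 to 0.77; edgeR adjusted p = 0.990). Without tumor-bearing replicate 1 the log2 fold change was -0.09, and without tumor-free replicate 1 it was -0.03.

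Itgam had 261, 284, 253 and 266 CPM in tumor-bearing mice and 302, 187 and 282 CPM in tumor-free mice. The tumor-bearing values lay within the tumor-free range. The means were 266 ± 13.2 CPM with a tumor (SD, n = 4) and 257 ± 61.4 CPM without (SD, n = 3), a log2 fold change of 0.06 (SE 0.27, 95% interval -0.56 to 0.68; edgeR adjusted p = 0.990). The sign turned without tumor-bearing replicate 2 (-0.01) and without tumor-free replicate 2 (-0.16). The tumor-bearing SD of 13.2 CPM was smaller than the 49.5 CPM that counting error alone gives at 19 to 45 counts.

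Ccl9 had 96.0, 137, 152 and 143 CPM in tumor-bearing mice and 156, 161 and 96.7 CPM in tumor-free mice. One library of each group, tumor-bearing replicate 1 and tumor-free replicate 3, lay well below the others. The log2 fold change was -0.01 (SE 0.30, 95% interval -0.71 to 0.69; edgeR adjusted p = 0.997), and its sign turned without tumor-bearing replicate 1 (0.07), without tumor-free replicate 1 (0.06) and without tumor-free replicate 2 (0.07). The means were 132 ± 24.7 CPM with a tumor (SD, n = 4) and 138 ± 35.8 CPM without (SD, n = 3), and counting error alone gives an SD of 33.9 CPM with a tumor and 34.9 CPM without.

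**Figure D2:**
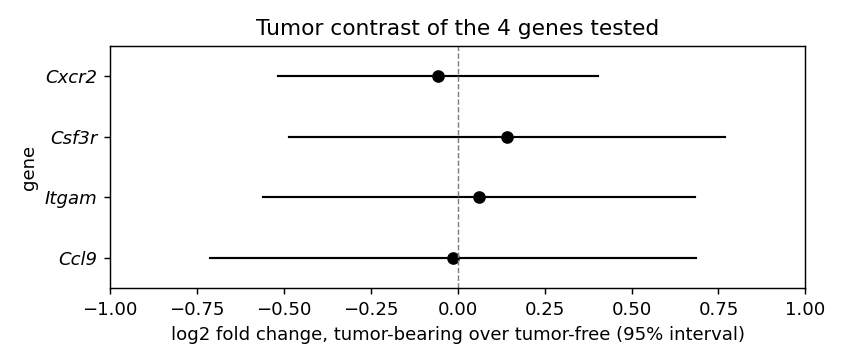
Log2 fold change of the 4 tested genes, tumor-bearing (n = 4) over tumor-free (n = 3), as points with 95% intervals from edgeR's quasi-likelihood fit. Each interval includes 0, and their outer ends lie at -0.71 and 0.77.

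A change within a gene's own interval could not be told from none in these libraries. Among tumor-bearing mice the SD was above counting error for Cxcr2 (318.2 CPM, with 123.8 CPM from counting) and for Csf3r (257 CPM, with 91.5 CPM from counting). Cxcr4 was too sparse for the filter: in the fit with no filter its log2 fold change was 0.75 (SE 0.91, edgeR unadjusted p = 0.388, adjusted p = 0.795), and its 6 libraries with a count held 1 to 6 counts each. Ptprc and S100a9, with 3 and 2 counts in all, are given by their counts alone.

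Whether the high counts of Cxcr2 and Itgam went with other myeloid genes was examined across the 7 libraries for all 6 pairs of Cxcr2, Csf3r, Itgam and Ccl9, on log2(CPM + 1). Between Cxcr2 and Itgam no relation passed (Pearson r = -0.22, exact permutation p = 0.520, adjusted over the 6 pairs 0.529; Spearman rho = -0.25, p = 0.595, adjusted 0.662). Among the 2494 other genes tested, 66.9% had a higher r with Cxcr2 than Itgam did. Without the 2 libraries farthest from the median of Cxcr2, tumor-bearing replicates 3 and 1, r was -0.92 over 5 libraries. With 1 library left out r lay between -0.51 and 0.22, and on raw counts, which follow depth, it was 0.62.

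Cxcr2 and Csf3r, which neutrophils carry together, had the closest relation of the 6 pairs. The rank correlation passed (Spearman rho = 0.93, exact permutation p = 0.00675, adjusted 0.0405) and Pearson's r did not (0.68, exact permutation p = 0.116, adjusted 0.346). Without tumor-bearing replicates 3 and 1, the libraries farthest from the median of Cxcr2, r was 0.83 over 5 libraries, and without tumor-bearing replicate 3 alone r passed (0.95, exact permutation adjusted p = 0.025). It passed with no other single library left out. Without tumor-bearing replicate 1 alone, the library with the highest Csf3r CPM, r was 0.42 (exact permutation adjusted p = 0.648). With any 1 of the 7 libraries left out, rho lay between 0.89 and 0.94 and its adjusted p between 0.0667 and 0.200, and on total counts without TMM scaling its adjusted p was 0.0738. Of the 2494 other genes tested, 7.50% had a higher r with Cxcr2 than Csf3r did, and 14.8% had a higher r with Csf3r than Cxcr2 did. The CPM of any pair of genes share the library size and its scaling factor. The 2 age classes hold 5 and 2 libraries, too few for a correlation within a class.

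The other 4 pairs had a negative r. Csf3r and Ccl9 had r = -0.63 (exact permutation p = 0.0984, adjusted 0.346) and rho = -0.46 (exact permutation p = 0.302, adjusted 0.594). Without the 2 libraries farthest from the median of Csf3r, tumor-bearing replicate 1 and tumor-free replicate 2, r was -0.75, and without tumor-free replicate 2 alone the pair passed (r = -0.80, exact permutation adjusted p = 0.0083). The pair passed with no other single library left out, and without tumor-bearing replicate 1 alone r was -0.22 (exact permutation adjusted p = 0.648). Cxcr2 and Ccl9 had r = -0.45 and rho = -0.39, Itgam and Csf3r r = -0.37 and rho = -0.46, and Itgam and Ccl9 r = -0.32 and rho = -0.21, with exact permutation adjusted p between 0.516 and 0.662. Without the 2 farthest libraries of the first gene these 3 r values were 0.26, -0.24 and -0.28.

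No relation with the sum of a whole list passed. The 52 neutrophil genes other than Cxcr2 and Itgam held 148, 110, 251 and 168 counts in tumor-bearing mice and 120, 206 and 189 counts in tumor-free mice, 655 of the 1192 counts being Csf3r. Their summed level had r = 0.51 and rho = 0.57 with Cxcr2, and r = -0.54 and rho = -0.54 with Itgam (exact permutation adjusted p between 0.355 and 0.471 over 4 relations). The 16 pan-leukocyte genes, Ptprc among them, held 40, 64, 96 and 76 counts in tumor-bearing mice and 53, 59 and 66 counts in tumor-free mice. Their summed level had r = 0.03 and rho = 0.18 with Cxcr2, and r = 0.38 and rho = 0.18 with Itgam (exact permutation adjusted p between 0.355 and 0.929). Without the 2 libraries farthest from the median of Cxcr2 or Itgam, r was 0.79 and -0.06 for Cxcr2 and -0.34 and 0.53 for Itgam, neutrophil sum first.

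The genes whose pattern over the 7 libraries was most like that of Cxcr2, among 2236 tested genes with a name, were Dlgap5 (r = 0.94), Ms4a6c (0.94), Msrb3 (0.93), Fam214b (0.93) and Zfp937 (0.92). Like Cxcr2, each had its highest CPM in the shallowest library, tumor-bearing replicate 1, and its lowest in the deepest, tumor-bearing replicate 3. For Ms4a6c these were 2057 and 1371 CPM, and for Zfp937 2579 and 1427 CPM. The part of depth in these patterns was not tested. Among those most like Itgam were Sptbn1 (0.94), Tbc1d13 (0.92), Pax3 (0.92) and Scin (0.92). None of these 9 stood on a neutrophil list; Ms4a6c, a membrane protein gene, stood on the monocyte list. They were picked as the highest of many values, so no test applies to them.

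Depth moved with these values. Total counts ran from 77127 to 169774, a 2.20-fold range, and the raw counts of all 4 genes followed them: r was 0.85 for Cxcr2, 0.85 for Itgam, 0.78 for Csf3r and 0.94 for Ccl9 (exact permutation adjusted p between 0.0151 and 0.0373 over 4 genes), with rho of 0.96, 0.79, 0.86 and 0.89 (adjusted 0.0111 to 0.0480). Without the 2 libraries farthest from each gene's median, r was 0.69, 0.48, 0.94 and 0.71. Raw counts usually rise with depth, and the same r was not computed for the other genes tested. These values therefore show no trait particular to the 4 genes. With 1 library left out the call was lost for Cxcr2 without tumor-bearing replicate 1 (r = 0.78), for Itgam without tumor-bearing replicate 1, 3 or 4 (0.77, 0.72 and 0.83), for Csf3r without tumor-bearing replicate 2, 3 or 4 (0.77, 0.58 and 0.77) or tumor-free replicate 2 or 3 (0.79 and 0.79), and for Ccl9 without tumor-bearing replicate 3 (0.87). Without tumor-bearing replicate 2, Cxcr2, Itgam and Ccl9 stood on the limit itself (exact permutation adjusted p = 0.05). Cxcr2 counts spanned a 1.60-fold range, narrower than that of depth, while Csf3r spanned 2.05-fold, Itgam 2.37-fold and Ccl9 3.86-fold. The highest count of any gene in a library lay between 282 and 303, and Cxcr2, at up to 229, was the one of the 10 nearest to it. That highest count stayed within this range while depth varied 2.20-fold, and its part in the counts, CPM and fold change of Cxcr2 was not tested. Its CPM had r = -0.83 with total counts (exact permutation p = 0.0284, adjusted over 4 genes 0.114; rho = -0.64, p = 0.139, adjusted 0.354), with 1961 CPM in the shallowest library and 1185 CPM in the deepest, both tumor-bearing. Without those 2 libraries, which set the range of depth and of this CPM, r was 0.08 over 5 libraries. With both ends of the range left out, the other 5 cannot show whether the relation holds across it. With 1 library left out r lay between -0.90 and -0.57, at -0.73 when tumor-bearing replicate 1 was the one left out and -0.57 when it was replicate 3. The part of depth in the relation of Cxcr2 with Csf3r was not tested.

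**Figure D3:**
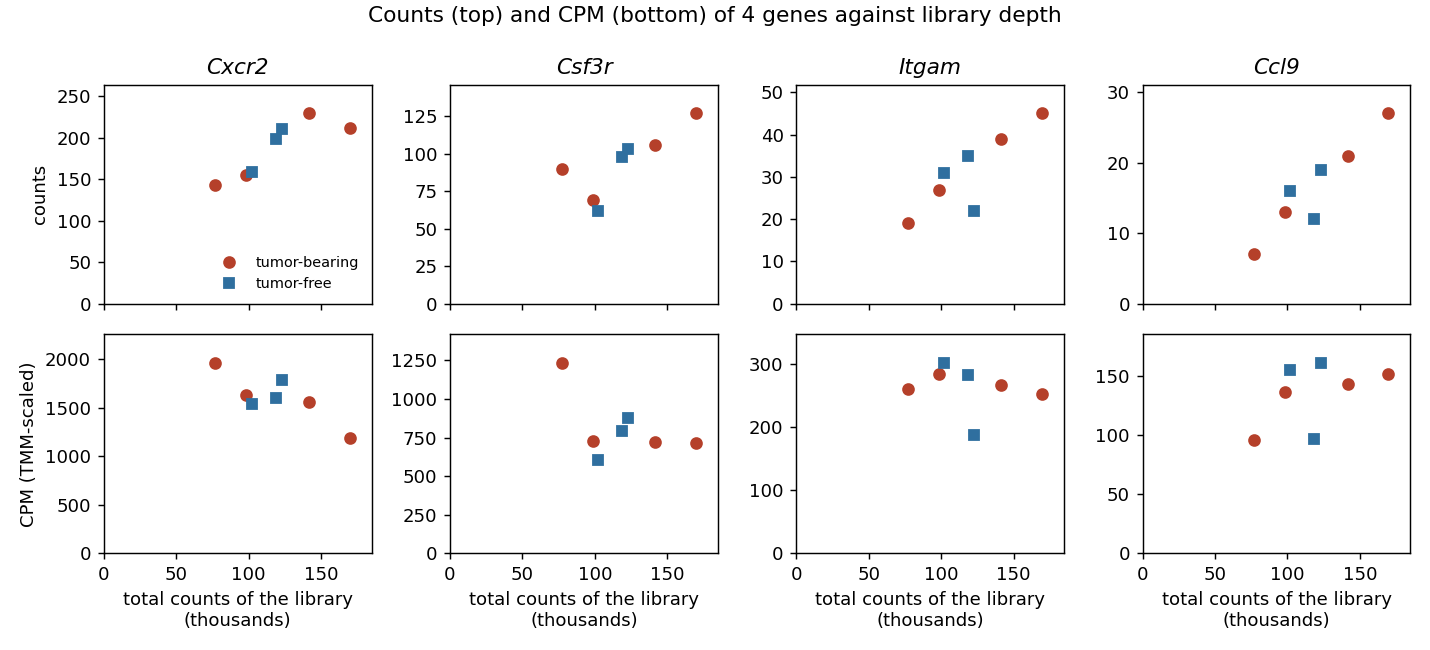
Counts (top row) and TMM-scaled CPM (bottom row) of Cxcr2, Csf3r, Itgam and Ccl9 against the total counts of the library, circles for tumor-bearing and squares for tumor-free mice. Counts of all 4 genes follow depth, and the CPM of Cxcr2 is highest in the shallowest library (1961) and lowest in the deepest (1185).

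The wider neutrophil lists also held genes with many counts beside genes at 0. Of 56 genes on the 4 neutrophil lists, 54 had an ID in the files: 27 had 0 counts in all libraries (50%), 21 had a mean under 5 counts per library and 6 had more (11.1%). Of all 23725 gene IDs 43.8% had 0 counts in all libraries and 14.7% had a mean of at least 5, so these shares are near those of the whole table. The 6 were Cxcr2, Csf3r, Itgam, Cd300lf, Mmp8 and Hp, and Cxcr2, Csf3r and Itgam held 80.2% of all counts of the 54. Of the surface receptors 10 of 26 were at 0, a share below that of all gene IDs; among them were Cxcr1, the paralogue beside Cxcr2, and the formyl peptide receptor gene Fpr1. Siglecf, the gene of the surface protein SiglecF, had 1, 3, 6 and 5 counts in tumor-bearing mice and 7, 6 and 3 in tumor-free mice.

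Primary granule genes were nearly empty, and most secondary and tertiary granule genes were at 0. The 6 primary granule genes held 0 to 4 counts per tumor-bearing library and 2 to 5 per tumor-free library, with Mpo, the myeloperoxidase gene, at 1 count in all. Of 13 secondary and tertiary granule genes 10 were at 0, beside 43.8% of all gene IDs. Among them were Ltf, Camp and Ngp, whose products fill specific granules. The other 3 of the 13 were Itgam, Mmp8 and Hp, which encodes haptoglobin. Through them this list held 36 to 94 counts per tumor-bearing library and 39 to 80 per tumor-free library. Mmp8, neutrophil collagenase, had 6, 8, 44 and 2 counts in tumor-bearing mice and 3, 53 and 33 in tumor-free mice (log2 fold change -1.29, SE 0.91; edgeR adjusted p = 0.990). Its counts were concentrated in tumor-bearing replicate 3 and tumor-free replicates 2 and 3. Over the 4 lists 5 distinct genes were tested, 0 of them called.

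The ligands of these receptors had few counts. Of 19 chemokine and growth factor genes, 10 were at 0, including Cxcl1, a CXCR2 ligand, and Csf3, the CSF3R ligand, both at 0 in every library. Cxcl12, the CXCR4 ligand of marrow stroma, had 2, 1, 1 and 2 counts in tumor-bearing mice and 4, 1 and 1 in tumor-free mice. Cxcl5, another CXCR2 ligand, had 0 to 8 counts per library. Besides Ccl9, the chemokine gene Cxcl15 alone of the 19 had a mean of at least 5 counts (5.57), with 1 to 10 counts per library. Ccl6, the neighbour of Ccl9 on chromosome 11 that is also made by myeloid cells, had 1 count in all, and Ccl3 had 0.

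In 6 of 12 lists of other blood lineages 1 gene held over 50% of the counts while over 50% of the genes were at 0. Of all gene IDs 43.8% were at 0. How often a list of other genes takes this form was not tested. Il5ra, a receptor chain of eosinophils, held 89.4% of the counts of the eosinophil list, where 6 of 8 genes were at 0. Cd22, a B cell receptor, held 94.0% of the B and plasma cell list (7 of 12 at 0), Eomes, a transcription factor of NK and T cells, 95.1% of the NK list (5 of 8 at 0), and Xcr1, a chemokine receptor of dendritic cells, 56.2% of the dendritic cell list (7 of 12 at 0). Of the 22 chemokine receptor genes 9 were at 0, and Cx3cr1 (106 to 199 counts per library), Xcr1 (51 to 123), Ccr9 and Ccr4 had a mean of at least 5 besides Cxcr2. Mast cell and basophil genes (7 of 9 at 0) and megakaryocyte genes (7 of 9 at 0) made up the 6, both near the floor. The mast cell and basophil list held 0 to 2 counts per library, and its highest gene Ms4a2 had 2 in all. The megakaryocyte list held 0 to 4 counts per library, and its highest gene Itga2b had 3 in all. The share of 1 gene says little at such counts. The other 6 lists were monocyte (7 of 14 at 0), macrophage (8 of 15), osteoclast (4 of 12), T cell (2 of 12), erythroid (0 of 10) and blood stem and progenitor genes (2 of 10). Among myeloid genes outside the neutrophil lists, Csf1r, the receptor of macrophage colony-stimulating factor, had 8 to 24 counts per library, and Tyrobp, an adaptor abundant in all myeloid cells, had 0 in all. By comparison 1 of 15 osteoblast genes was at 0 and 8 had a mean of at least 5. Lists outside the blood lineages also had 1 gene with most of the counts. Lepr held 81.4% of the marrow stromal list (2 of 9 at 0). Cdh5 held 66.7% of the endothelial list (7 of 9 at 0), which had 0 to 2 counts per library.

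The shares of the neutrophil and pan-leukocyte lists overlapped between mice with and without a tumor, apart from the sparse S100 and cytosolic list. Neutrophil surface receptors made up 0.267% to 0.358% of the counts of a tumor-bearing library and 0.290% to 0.312% of a tumor-free one. Pan-leukocyte genes made up 0.0519% to 0.0650% in tumor-bearing and 0.0480% to 0.0556% in tumor-free libraries. The 11 neutrophil S100 and cytosolic genes with an ID, 5 of them at 0 throughout, held 1, 1, 0 and 0 counts in tumor-bearing mice and 3, 3 and 3 counts in tumor-free mice, so these groups did not overlap, at counts no higher than the floor of 3. Of the pan-leukocyte genes 5 of 16 were at 0, and Cytip held 61.7% of the counts. The median log2 fold change was 0.00 over the 4 neutrophil surface receptors tested (2 above 0 and 2 below), 0.09 over 5 chemokine receptors, -0.02 over 3 monocyte genes and 0.16 over 2 macrophage genes, beside 0.04 over all 2495 genes. In 0 of the 18 lists with a gene tested did a member have an unadjusted p under 0.05 (edgeR).

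**Figure D4:**
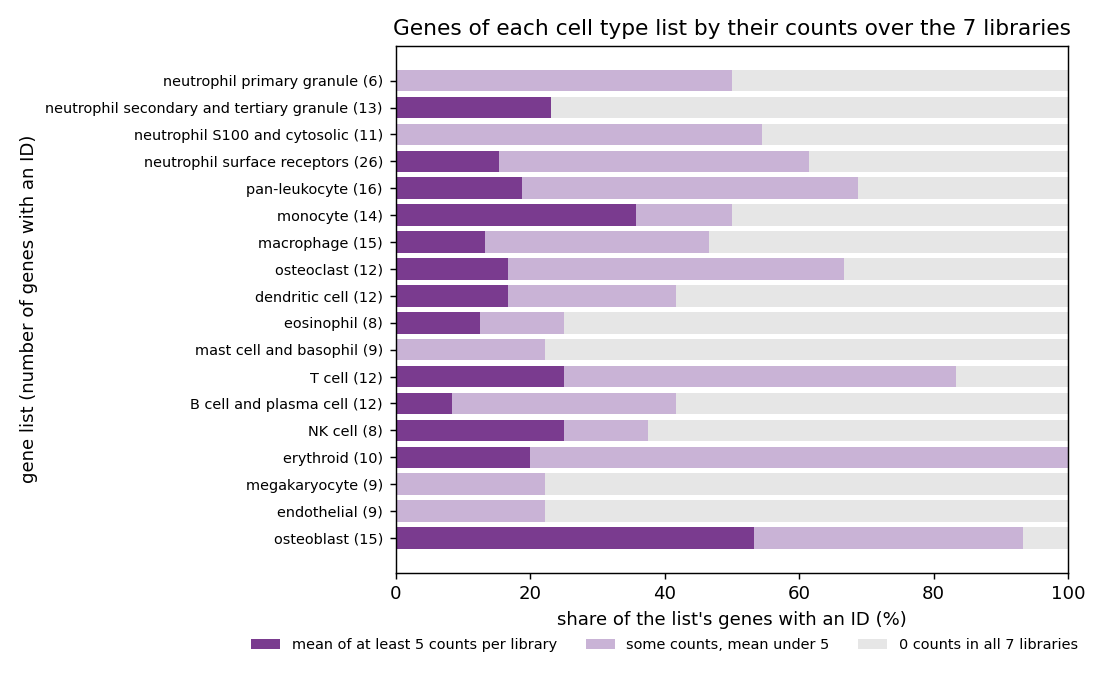
Share of the genes of each list (x axis, percent of the genes with an ID) that had a mean of at least 5 counts per library, some counts with a mean under 5, or 0 counts in all 7 libraries. Of the neutrophil lists 4 of 26 surface receptors and 0 of 6 primary granule genes reach a mean of 5, against 8 of 15 osteoblast genes.

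Transcript length differed between the genes with counts and those without. The longest GENCODE vM21 transcripts of Cxcr2, Csf3r, Itgam and Ccl9 have 3046, 3481, 4682 and 3006 bases, and those of S100a8, S100a9, Elane and Lyz2 have 498, 519, 984 and 1316. Ptprc, at 5740 bases with 3 counts, went the other way, and Cxcr4 has 1805. Per kilobase of transcript, the mean count per library was 61.2 for Cxcr2, 26.9 for Csf3r, 6.65 for Itgam, 5.46 for Ccl9, 1.34 for Cxcr4, 0.55 for S100a9 and 0.0747 for Ptprc. Cxcr2 and Csf3r stood above the others in both forms. Because counts came from transcript 3′ ends, a count per kilobase is a description and not a level corrected for length.

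Longer transcripts had counts more often over the whole table as well. Of 20285 protein-coding genes with a transcript, 2.07% of those under 1000 bases had a mean of at least 5 counts per library, 6.47% of those from 1000 to under 2000, 17.1% of those from 3000 to under 4000 and 27.9% of those of 5000 and over. Of the neutrophil genes 4 of 10 with at least 3000 bases had such a mean, and 2 of 44 shorter ones. Stretches of 12 bases with 10 or more A, counted outside the final 100 bases, were found at 5 places in the Cxcr2 transcript, 3 in Ptprc and 1 in Itgam, and at none in the other 7; 43.1% of protein-coding genes have one. From 3000 to under 4000 bases, 21.1% of genes with such a stretch and 13.03% of those without had a mean of at least 5. No exon on the opposite strand overlapped any of the 10 genes. Whether length or A-rich stretches set the counts of the 10 genes was not tested.

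**Figure D5:**
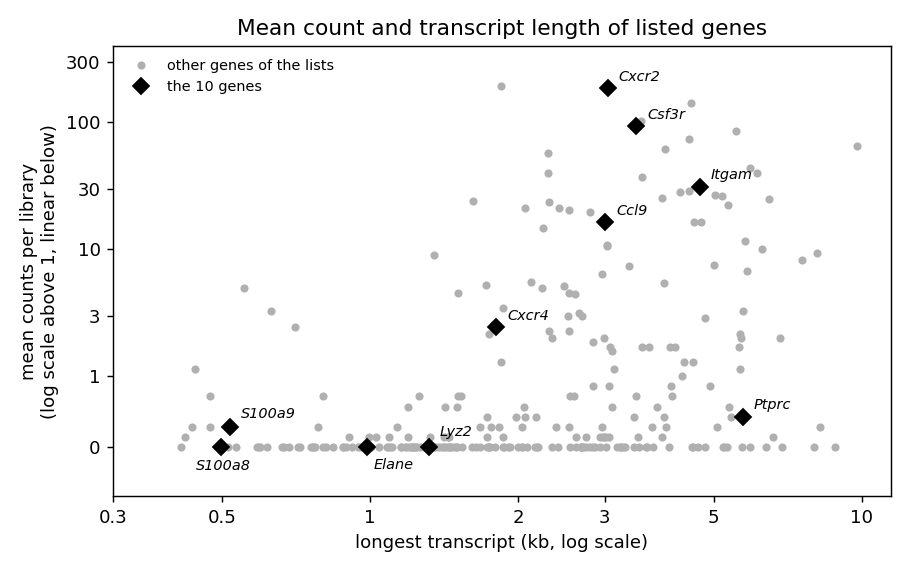
Mean counts per library (y axis, log scale above 1 and linear below) against the longest transcript in kilobases (log scale), with the 10 genes as labelled diamonds and the other genes of the lists as grey points. Cxcr2, Csf3r, Itgam and Ccl9 lie at 3 kb and over, and S100a8, S100a9, Elane and Lyz2 at 1.316 kb and under.

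The genes next to the 4 tested ones had fewer counts than they did, apart from Trim72 beside Itgam. Beside Cxcr2, Rufy4 and Cxcr1 had 0 counts. Itgax, the integrin gene 11035 bases beyond Itgam, and Mrps15, 1953 bases beyond Csf3r, had 0 as well. On the other side of Itgam, Trim72 had 275 counts in all, against 218 for Itgam, at a distance of 51247 bases. E230016K23Rik, 3425 bases from Ccl9, held 62 counts in all.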

How the data were processed

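RNA of sorted cells was measured in 7 libraries, 1 per mouse. Per the labels' protocols, it was extracted with Trizol, and transcript 3′ ends were sequenced by a custom CelSeq method in which molecular identifiers tag each RNA. TopHat2 2.0.10, SAMtools and mm10 appear in the submitters' processing notes. The sources used here do not name the counting program or its strand setting, nor say if identifiers were collapsed, so a count may be a read or a molecule. What the authors deposited is a whole-number count for each Entrez gene, not normalized.

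A RefSeq table (GRCm38.p6, the assembly of mm10) named 23666 of 23725 IDs; all 10 genes matched. The low count filter was filterByExpr (minimum count 10, minimum total 15; edgeR 4.0.16). Libraries were scaled by TMM and genes tested with robust glmQLFit and glmQLFTest in R 4.3.3, age as a factor, prior count 0.125, Benjamini-Hochberg at 0.05. Each library is 1 mouse, and the design text states matching by age, sex and litter without naming litters, so p-values measure the spread between these libraries. Relations used log2(CPM + 1) and two-sided exact permutation over 5040 orders, counting orders with an absolute value at least as large. The procedure was tested on simulated data. Alternatives were no age term, 31-week mice, a replicate block, DESeq2 1.42.0, limma 3.58.1 voom, 3 other scalings, 2 other filters, 2 other estimates and each library left out; for relations, total counts only, log2(CPM + 10), raw counts and each library left out. Transcript features and promoters came from GENCODE vM21 and RefSeq.

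The 10 genes and the 24 lists were chosen with earlier results of these data known; 3 of 277 listed genes were not analysed here. Genes named are the 10, up to 3 per list with the highest mean count of at least 5, and those most like Cxcr2 and Itgam, of which 1 is not reported; neighbours, list members at or near 0, Cd300lf, Siglecf, ligands and transcription factors were chosen after their values were seen. Relations of CPM with depth were also added then.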

Additional observations from a re-analysis of the deposited data

Results flagged for a closer look

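In 6 of 50 genes checked, 1 of the 4 tumor-bearing libraries stood apart from the other 3 by more than Dixon's limit. Chance flags about 1 in 20 groups of independent, normally spread values. Some of the 50 have few counts or were picked as most like Cxcr2 or Itgam, so 6 of 50 cannot be held against that rate. In each of the 6 it was tumor-bearing replicate 1, the library with the fewest counts. Csf3r had 1234 CPM there, and the other 3 tumor-bearing libraries 714 to 725 CPM. Hp, the haptoglobin gene, had 370.3 CPM, Rac2, a GTPase of leukocytes, 192 CPM, Cd22 796 CPM and Hba-a2, an alpha globin gene, 68.6 CPM, each the highest of the group. Pax3 had 137 CPM, the lowest of the group.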

How the results depend on the processing

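No gene was called in any of 12 other settings (edgeR in 10, DESeq2 and limma voom in 1 each) or by edgeR with each library left out, with 32 to 458 genes at an unadjusted p under 0.05. Of the 47 contrast values of the 4 genes under other settings 3 turned sign, all of Ccl9: 0.0703 with limma voom, 0.000400 with total counts only and 0.00710 with no low count filter. With 1 library left out the log2 fold change lay between -0.198 and 0.0058 for Cxcr2, -0.161 and 0.256 for Itgam, -0.0892 and 0.247 for Csf3r and -0.306 and 0.0725 for Ccl9. The filter of 30 counts in at least 3 libraries left Ccl9 untested. Replicate numbers did not pair the libraries (r of the deviations across genes -0.15, -0.19 and -0.12 for numbers 1, 2 and 3; no library correlated best with its own number). With the replicate number as a block, without tumor-bearing replicate 4, 0 genes were called, 37 had an unadjusted p under 0.05, and the log2 fold changes were -0.12 for Cxcr2, 0.02 for Itgam, 0.14 for Csf3r and -0.09 for Ccl9.

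Raw counts turned the sign of r for Cxcr2 with Itgam (0.62) and Ccl9 (0.75), Itgam with Csf3r (0.52), Ccl9 (0.74) and the neutrophil sum (0.50), and Csf3r with Ccl9 (0.62), and let Itgam pass with the pan-leukocyte sum (0.89). The rank correlation of Cxcr2 with Csf3r did not pass on raw counts (0.82) or total counts only (0.89), and lay between 0.89 and 0.94 with 1 library left out. Total counts only turned Cxcr2 with the pan-leukocyte sum (-0.36). The cause of these changes was not tested. With 1 library left out, r lay between -0.51 and 0.22 for Cxcr2 with Itgam, 0.42 and 0.95 with Csf3r and -0.11 and 0.17 with the pan-leukocyte sum, -0.54 and 0.14 for Itgam with Ccl9, and -0.81 and -0.22 for Csf3r with Ccl9. With total counts it lay between 0.78 and 0.96 for Cxcr2, 0.72 and 0.97 for Itgam, 0.58 and 0.93 for Csf3r, 0.87 and 0.98 for Ccl9, and -0.71 and 0.15 for Csf3r CPM. Depth limits the 6 genes under the filter: 3 counts are 17.7 to 38.9 CPM in 1 library.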
